A study of Mus musculus with 49 samples.

Results

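Transcription factors that act while cortical neurons mature were examined in single mouse neurons: Sox4, Sox11, Mef2c, Nfia, Nfib, Nfix, Zbtb18, Bhlhe22, Tcf4 and Zeb2. The list was written from what these genes are known for, but with earlier results of these data known. Each listed gene that is a row of the deposited table was kept, whatever its level. All 10 of the 10 listed genes are rows of the table, which holds 9020 genes. The table keeps genes that reach 100 RPM in at least 2 cells, so every row, member or not, is high somewhere.

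The cells are 49 neurons of wild-type (WT) CD1 mice from the primary somatosensory cortex. They had been labelled with FlashTag at E13.5, a dye that marks progenitors dividing at the ventricular surface and the neurons that they bear, and were drawn into a patch pipette at P7. There is 1 condition, with no control group, and the labels name no animal. The 49 cells were therefore treated as 1 sample, no test between cells was made, and every relation between genes is a description of these cells. Intervals are exact Clopper-Pearson intervals at 95%, and they cover counting error only.

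Newborn cortical neurons leave the cell cycle, migrate, and then grow axons, dendrites and synapses, and transcription factors switch over along this path. Sox4 and Sox11, of the SoxC group, are best known from young neurons that are still building their processes. Nfia, Nfib and Nfix are nuclear factor I proteins, which bind the half-site TTGGC and act both in the end of neurogenesis and in the layers of the deep cortex. Mef2c is a MADS-box factor that acts in the number of synapses and in neuronal survival, and Tcf4 is a broadly expressed bHLH protein, an E protein, that pairs with other bHLH factors on E-boxes. Bhlhe22 is a bHLH repressor of cortical projection neurons, Zbtb18 is a zinc finger repressor needed in the migration and maturation of cortical neurons, and Zeb2 is a zinc finger and homeodomain repressor that acts in newborn excitatory neurons and in migrating interneurons.

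The highest rank correlation between any pair of the 10 genes was that of Mef2c and Zbtb18, so the bases before their start sites are shown. They come from RefSeq on GRCm38.p6, where 7 of the 10 genes have an entry, and Nfib, Bhlhe22 and Tcf4 have none. The Mef2c stretch is chr13:83503784-83504033 and the Zbtb18 stretch is chr1:177442101-177442350, each of 250 bases on the + strand, and each ends at the base before the start that GENCODE M21 gives the gene. Both run 5′ to 3′, and capitals mark E-boxes, searched as CANNTG on both strands.
Mef2c: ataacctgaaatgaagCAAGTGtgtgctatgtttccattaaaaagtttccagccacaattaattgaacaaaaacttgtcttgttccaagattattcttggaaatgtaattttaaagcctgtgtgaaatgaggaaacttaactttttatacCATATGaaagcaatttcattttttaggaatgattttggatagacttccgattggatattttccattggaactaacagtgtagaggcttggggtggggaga
Zbtb18: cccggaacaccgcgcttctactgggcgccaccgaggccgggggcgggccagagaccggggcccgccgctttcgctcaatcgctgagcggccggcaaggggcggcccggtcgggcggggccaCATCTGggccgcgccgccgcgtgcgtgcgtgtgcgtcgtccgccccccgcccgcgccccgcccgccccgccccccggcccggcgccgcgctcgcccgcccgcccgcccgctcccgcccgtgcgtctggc

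The Mef2c stretch held an E-box 234 and another 100 bases before the start, and the Zbtb18 stretch held a single E-box, CATCTG, 129 bases before it. RefSeq gives further start sites, with 3 stretches for Mef2c and 5 for Zbtb18, and those not shown hold between 0 and 5 E-boxes. E-boxes are common: 66.2% of all 32851 stretches of this length in the RefSeq table held one, and 14.4% held CATCTG on either strand. CATCTG is itself an E-box, so these counts overlap. The letters show only what is in these stretches, and binding was not measured.

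The authors' values are in RPM, the unit in which all cells have an equal total of reads. Division by the value of 1 read in each cell returned whole reads, within 0.01, for 100% of the entries other than 0. The shallowest cell had 209850 reads, the median cell 1240101 and the deepest 35342325, and 1 read stood for 4.77 RPM in the shallowest cell and 0.0283 RPM in the deepest. The cells were sequenced in 5 library pools of 12, 9, 9, 9 and 10 cells. Hemoglobin genes took at least 1% of the reads in 8 cells and up to 68.8% in a single cell. All 49 cells had at least 2 genes of a list of older neurons (Snap25, Syt1, Map2, Camk2a, Nefl, Nefm) at 10 RPM or more. In 40 cells at least 2 excitatory markers reached 10 RPM, in 18 cells at least 2 inhibitory markers, in 17 oligodendrocyte lineage, in 13 microglia and in 12 astrocyte markers, and a cell can be counted under several lists.

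Reads of these factors were found in nearly every neuron, and most cells held most of them at once. Reads of Sox11, Mef2c, Nfia, Nfix, Zbtb18 and Tcf4 were found in 49 of 49 cells (100%, interval 92.7% to 100%). Zeb2 had reads in 48 cells, Sox4 and Nfib in 45 each (91.8%, interval 80.4% to 97.7%) and Bhlhe22 in 43 (87.8%, interval 75.2% to 95.4%). Cells with reads of a member, but under 1% of those of their pool, ran from 7 for Mef2c to 23 for Bhlhe22. There were 16 such cells each for Sox11, Nfib and Nfix. Shallow cells of a deep pool can also fall there, and whether such reads come from other cells of the pool was not tested. Of all genes of the table, 8.1% had a read in every cell, against 6 of the 10 members. At 10 RPM or more in at least 25 cells were 9 of 10 members, all but Bhlhe22, where 38.2% of all genes were. At 100 RPM or more in at least 25 cells were 6 members (Sox11, Mef2c, Nfix, Zbtb18, Tcf4 and Zeb2), where 13.7% of all genes were. Only Mef2c and Tcf4 of the members were at 10 RPM or more in every cell, as were 2.2% of all genes. The list was chosen with earlier results of these data known, so these shares only describe it.

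Counted cell by cell, a median of 10 members had a read, with a range of 7 to 10, and 36 cells had reads of all 10. At 10 RPM or more the median was 9 members, from 4 to 10, and 9 cells held all 10. At 100 RPM or more the median was 6 members, from 2 to 9. The number at 100 RPM or more rose weakly with the depth of the cell, with a Spearman's rho of 0.32 over the 49 cells, so part of this spread moves with depth.

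**Figure D1:**
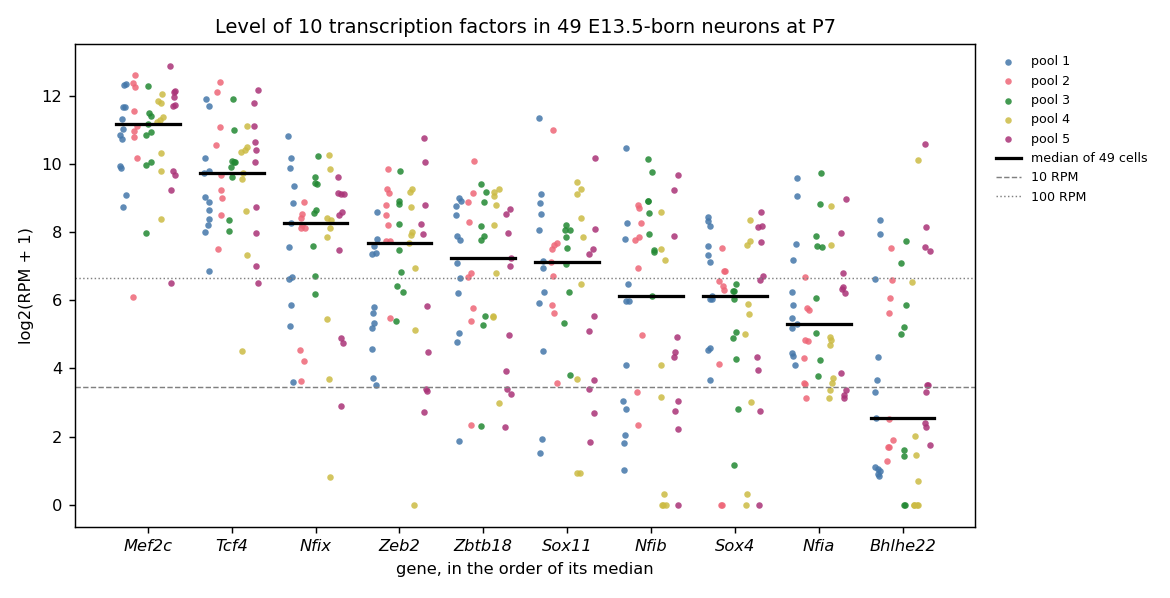
Levels of the 10 genes in the 49 cells as log2(RPM + 1), 1 point for each cell, coloured by library pool, with genes in the order of their median (black line). Mef2c and Tcf4 lie above 10 RPM (dashed line) in every cell, while the cells of Nfib and Bhlhe22 reach from 0 to above 1000 RPM.

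Mef2c was the most abundant of the 10 by a wide margin. Its level was 66.8 RPM in the lowest cell, 2316 RPM at the median and 7495 RPM in the highest cell, and 36 cells held 1000 RPM or more. By its median it ranked 15 among 9020 genes, and 268 among 8815 genes once the median was divided by the length of the exons. It had the highest RPM of all 10 members in 35 of 49 cells, and in 34 cells per kilobase. It exceeded Zbtb18 and Nfia in all 49 cells in RPM, Zbtb18 in all 49 also per kilobase, and Nfia per kilobase in 48. The middle of its distribution was also the narrowest of the members, with 998 RPM at the lower quartile and 3514 RPM at the upper, a ratio of 3.52.

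Tcf4 was the next highest in RPM, with 21.6 RPM in the lowest cell, 854 RPM at the median and 5427 RPM in the highest. It was the highest member in 9 cells in RPM and in 5 per kilobase, and its median per kilobase, 31.2, lay below that of Nfix, 41.6. Its gene has 27.4 kilobases of exon in the annotation, the longest of the members, and reads come from the 3′ end of transcripts, so neither scale is a level of molecules. Mef2c lay above Tcf4 in 38 of 49 cells in RPM and in 43 per kilobase.

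The nuclear factor I genes differed in level. Nfix was lowest at 0.751 RPM, had a median of 306 RPM and reached 1795 RPM, and 35 cells held 100 RPM or more. Nfib ran from 0 to 1402 RPM with a median of 69.3 RPM, and Nfia from 7.76 to 857 RPM with a median of 38.7 RPM. Nfix had the highest RPM of these 3 genes in 27 cells, Nfib in 13 and Nfia in 9, and per kilobase Nfix led in 33 cells and each of the others in 8. Nfia lay above Nfib in 25 cells and below it in 24, so these neighbours in the order cannot be ranked.

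Combinations of the NFI genes were mixed. All 3 were at 100 RPM or more in 8 cells, Nfib and Nfix without Nfia in 9, Nfix alone in 16, Nfib alone in 5, Nfia alone in 4, and none in 4. The rank correlation was 0.26 for Nfia with Nfix, 0.12 for Nfia with Nfib and 0.07 for Nfib with Nfix. The highest of these values lies under the limit of 0.4 used below.

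Nfib was the member whose cells spread most evenly from absent to abundant. In 16 cells it was under 10 RPM, 4 of them at 0, in 10 between 10 and 100 RPM, and in 23 at 100 RPM or more, with quartiles of 7.19 and 307 RPM. Its level also moved most with the library pool: of the variance of log2(RPM + 1) of Nfib, 27.1% lay between pools, where the median over all genes was 9.91% and the 90th percentile 21.9%. All 9 cells of pool 3 held at least 10 RPM, with a median of 377 RPM, against 4 of 9 cells of pool 4, with a median of 7.87 RPM. Without pool 3 the median over the other cells was 25.1 RPM and without pool 1 it was 145 RPM. What the cells of a pool share beside sequencing was not tested.

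Zbtb18 ranged from 2.66 RPM through a median of 151 RPM to 1075 RPM, and Zeb2 from 0 through 206 RPM to 1746 RPM. Zbtb18 exceeded Zeb2 in 25 cells and Zeb2 exceeded Zbtb18 in 24 in RPM, whereas per kilobase Zbtb18 was higher in 36 cells. Only 1 cell had no read of Zeb2, cell 4 of pool 4, which with 254182 reads was among the shallowest. There 0 reads allow a level of up to 11.8 RPM, the worth of 3 reads.

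The SoxC genes were still widely present at P7. Sox11 ran from 0.893 RPM through a median of 138 RPM to 2618 RPM, and Sox4 from 0 through 68.8 RPM to 381 RPM. Sox11 was at 100 RPM or more in 28 cells and Sox4 in 17. Both reached 100 RPM in 10 cells, close to the 9.71 expected if they were independent, Sox11 alone did in 18, Sox4 alone in 7 and neither in 14. Their rank correlation was 0.11. In RPM, Sox11 lay above Sox4 in 30 cells, but per kilobase in only 26, so their order is not firm.

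Low Sox4 went with shallow cells more than for any other member: its rho with the depth of the cell was 0.42, against 0.36 for Tcf4 and -0.11 for Sox11. The highest Sox11 cells stood far above the others, at 2618, 2027 and 1159 RPM, and the 5 highest cells held 52.4% of the summed RPM of Sox11 over the 49 cells. For Sox4 the 5 highest held 32.8%.

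Bhlhe22 was the lowest member on either scale, with a median of 4.85 RPM and a lower quartile of 1.42 RPM. In 27 cells it was under 10 RPM, in 12 between 10 and 100 RPM, and in 10 at 100 RPM or more. Its highest cells were cell 8 of pool 5 with 1530 RPM, cell 4 of pool 4 with 1117 RPM and cell 11 of pool 1 with 326 RPM. The first of these holds 321 reads of Bhlhe22 among 209850 and the next 284 among 254182, so the gene's extremes are in shallow cells but do not rest on a few reads. The 5 highest cells held 69.6% of the summed RPM, and the ratio of the upper to the lower quartile was 65.0.

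**Figure D2:**
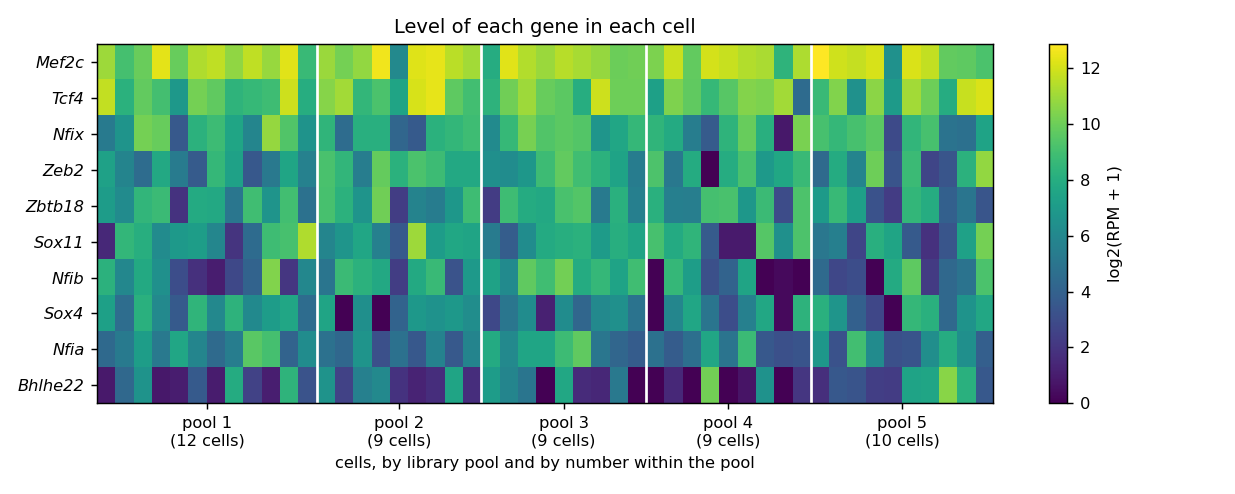
The same values cell by cell: rows are genes in the order of their median, columns the 49 cells in their library pools, and colour is log2(RPM + 1), which is not scaled for gene length. The bright row of Mef2c breaks in a few cells only, and the Nfib row is bright throughout pool 3 and dark in several cells of pool 4.

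Across cells the 10 factors did not rise and fall as a block. Over the 45 pairs, the median Spearman's rho was 0.10, and over all pairs of the 7420 genes that reached 10 RPM in at least 10 cells it was also 0.10. A rho of 0.4 or more was found in 3 of the 45 pairs, and in 2.6% of all pairs of genes. No pair of members was at -0.4 or less, as 0.157% of all pairs of genes were, and 29 pairs lay between -0.2 and 0.2. The points share the library pools and the depth of each cell, and these values carry no test.

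The 3 pairs join Mef2c, Zbtb18 and Nfix to each other. Mef2c and Zbtb18 had a rho of 0.55, which was 0.50 when every cell was thinned to 358412 reads (44 cells, 5 left out), 0.46 without the 8 cells with hemoglobin, and 0.49 to 0.62 when each pool was left out in turn. Nfix and Zbtb18 had a rho of 0.49, with 0.47 to 0.53 over the pools left out, and were both at 100 RPM or more in 26 cells where 21.4 would be expected of independent genes. Mef2c and Nfix had a rho of 0.47, with 0.34 to 0.52 over the pools left out.

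The cells with the least Mef2c were low in Zbtb18 too. The lowest was cell 5 of pool 2, with 66.8 RPM of Mef2c, 4.09 RPM of Zbtb18 and 17.7 RPM of Nfix. Cell 5 of pool 5 had 89.5, 3.89 and 6.49 RPM of the same genes, and cell 1 of pool 3 had 250, 3.97 and 71.4 RPM. Each of these cells was high in markers of other cells. Summed astrocyte markers of the first were at 2501 RPM, the highest of the 49. Summed microglia markers of the next were at 6599 RPM, also the highest, and hemoglobin genes took 68.8% of the reads of the last. Yet cell 9 of pool 1 had 1836 RPM of astrocyte markers with 3239 RPM of Mef2c and 481 RPM of Zbtb18. Cell 5 of pool 4 had 1897 RPM of microglia markers with 3514 RPM of Mef2c and 578 RPM of Zbtb18. The next lowest Mef2c cells, at 333 and 426 RPM, had the highest inhibitory sums, 6493 and 3292 RPM. The part of the low cells in the relations was not tested beyond the values without the cells with hemoglobin.

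Tcf4 and Zeb2 had a rho of 0.36, but it ranged from 0.15 without pool 5 to 0.49 without pool 4. The lowest value of all pairs was that of Nfia and Tcf4, -0.34, with -0.43 to -0.25 over the pools left out. Nfia and Zeb2 were at -0.27, and were both at 100 RPM or more in 5 cells where 9.49 would be expected.

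**Figure D3:**
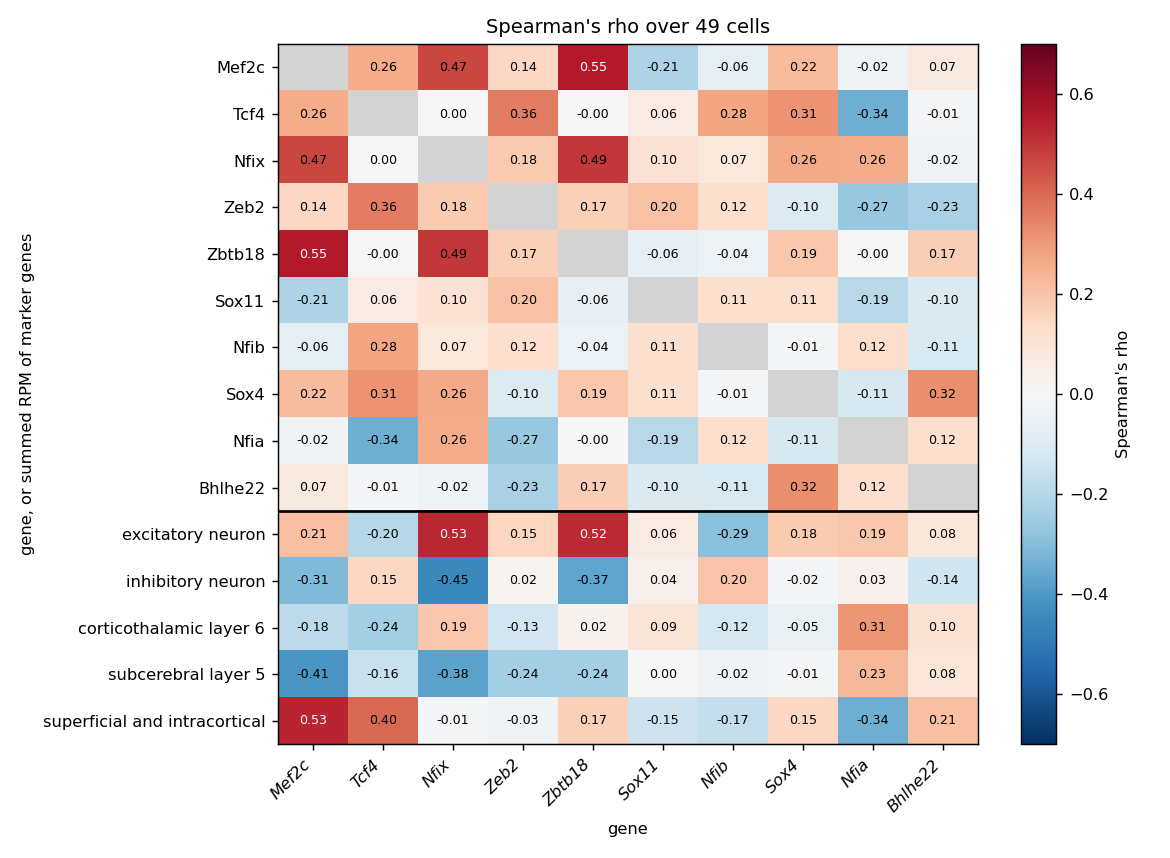
Spearman's rho over the 49 cells between the 10 genes, above the line, and between each gene and the summed RPM of marker lists, below it. Mef2c, Nfix and Zbtb18 are joined by values of 0.47 to 0.55, and in the bottom row Mef2c has 0.53 with the superficial sum.

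Markers of projection neuron classes were set beside the members to see which classes of neuron held them. Mef2c went with the superficial and intracortical markers Cux1, Cux2, Rorb and Lhx2: its rho with their summed RPM was 0.53, and only 0.189% of genes had a higher one. Of all genes, 1.75% had a rho of 0.4 or more with this sum. For Mef2c it was 0.42 without the cells with hemoglobin, and 0.40 to 0.60 over the pools left out. Taken singly, rho with Mef2c was 0.48 for Lhx2, 0.29 for Cux2, 0.27 for Rorb and 0.11 for Cux1. Tcf4 had a rho of 0.40 with the same sum, which was 0.30 without the cells with hemoglobin, and Nfia had -0.34. With these 4 markers Zbtb18 was at 0.17 and Nfix at -0.01, and these values cover the 4 genes only. With the summed subcerebral layer 5 markers (Bcl11b, Fezf2, Crym, Ldb2, Pcp4) Mef2c had a rho of -0.41, where 0.27% of all genes were at -0.4 or less. By gene, Mef2c was at -0.32 with Pcp4, -0.23 with Crym, -0.21 with Bcl11b, -0.08 with Ldb2 and -0.07 with Fezf2. Pcp4 weighs most in this sum, with a median of 151 RPM against 1.02 to 1.46 RPM for the others. Nfix was at -0.38 with the sum, -0.45 with Pcp4 and 0.18 with Ldb2.

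Zbtb18 and Nfix were the members at a rho of 0.4 or more with the summed excitatory markers Slc17a7, Neurod2, Neurod6, Slc17a6 and Camk2a. The rho was 0.53 for Nfix and 0.52 for Zbtb18, and 1.35% of all genes were at 0.4 or more. Among single genes, Nfix had 0.47 with Neurod6 and 0.45 with Neurod2, and Zbtb18 had 0.40 with Neurod2, both bHLH factors of excitatory neurons. The list did not move as a whole: Camk2a was at 0.03 with Nfix and -0.02 with Zbtb18, Slc17a6 at 0.05 and 0.19, and Slc17a7 at 0.31 and 0.14. With the summed inhibitory markers (Gad1, Gad2, Slc32a1, Dlx1, Dlx2, Lhx6, Sst) Nfix had a rho of -0.45, where 0.162% of all genes were at -0.4 or less, and Zbtb18 -0.37. The value for Nfix ranged from -0.56 to -0.31 over the pools left out. Single genes were weaker: Nfix was at -0.33 with Sst, -0.32 with Lhx6, -0.19 with Gad1, Slc32a1 and Dlx1, -0.08 with Gad2 and -0.07 with Dlx2. Zbtb18 ran from -0.16 with Slc32a1 to -0.04 with Lhx6. Cell 3 of pool 3, among the highest inhibitory sums at 1641 RPM, held 1198 RPM of Nfix.

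Nfia went with Foxp2, a forkhead factor of corticothalamic neurons of layer 6, with a rho of 0.48 and 0.39 to 0.62 over the pools left out. Both were at 100 RPM or more in 8 cells where 3.67 would be expected. With other layer 6 markers its rho was 0.32 for Tle4 and 0.32 for Syt6, but 0.03 for Tbr1 and 0.12 for Fezf2, and 0.31 for the sum. Such values were not particular to layer 6 markers. Of the layer 5 list, Ldb2 had 0.37 and Crym 0.33 with Nfia, but Pcp4 0.12 and Bcl11b 0.05, and the sum 0.23. Among the cells with the highest layer 6 sum, cell 9 of pool 1 held 768 RPM of Nfia and 16.2 RPM of Nfib, and cell 5 of pool 3 held 449 RPM and 1137 RPM. The gene most like Nfia over the cells was Tshz3, with a rho of 0.51.

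Nfib went with Gad2, an enzyme that makes GABA: rho was 0.55, and both were at 100 RPM or more in 7 cells where 3.76 would be expected, of 8 cells with Gad2 at that level. With ranks centred on library pools the rho was 0.42. Gad2 had a median of 1.61 RPM and reached 10 RPM in 11 cells, so many of its ranks lie near the floor. With Gad1, the other such enzyme, rho was 0.31, and with Slc17a7, a glutamate transporter of excitatory neurons, it was -0.33. The other inhibitory markers ran from -0.33 for Sst to 0.28 for Dlx1, and rho of Nfib with the inhibitory sum was 0.20. Yet the highest Nfib cell, at 1402 RPM, held 1199 RPM of summed layer 6 markers, and the next, at 1137 RPM of Nfib, held 2206 RPM of them and 10.7 RPM of inhibitory markers. High Nfib was seen beside markers of either class.

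The few highest cells of Sox11 and Tcf4, and the single highest of Zeb2, were cells with a high sum of inhibitory markers. The 8 cells with the highest inhibitory sums, 784 to 6493 RPM against a median over all cells of 41.1 RPM, included the 3 highest cells of Sox11, the 4 highest of Tcf4 and the highest of Zeb2. Cell 10 of pool 5 held 1159 RPM of Sox11, 4553 RPM of Tcf4 and 1746 RPM of Zeb2, with 1266 RPM of inhibitory and 32.6 RPM of excitatory markers. Cell 6 of pool 2 held 2027 RPM of Sox11 and 4438 RPM of Tcf4, cell 7 of pool 2 held 5427 RPM of Tcf4, and cell 12 of pool 1 held 2618 RPM of Sox11 but 257 RPM of Tcf4. Gad2 was at 552 RPM in cell 10 of pool 5, and at 324 and 419 RPM in cells 6 and 7 of pool 2. It was at 0 RPM in cell 12 of pool 1. Cell 7 of pool 3, with 3822 RPM of Tcf4, held 1.72 RPM of Gad2 and 2996 RPM of summed layer 5 markers. A high inhibitory sum therefore need not include Gad2.

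The overlap is one of extremes and not of the whole range. Over the 49 cells rho with the inhibitory sum was 0.15 for Tcf4, 0.04 for Sox11 and 0.02 for Zeb2. The cell with the highest inhibitory sum, cell 8 of pool 4 with 6493 RPM, held 88.6 RPM of Sox11 and 206 RPM of Zeb2, and was the lowest of the 49 for Nfix (0.751 RPM) and Nfia (7.76 RPM). The single inhibitory genes with a rho of 0.4 or more with Tcf4 were Gad2 at 0.51 and Slc32a1 at 0.47, while Sst, the gene of the list with the highest level in any cell (5288 RPM), was at -0.23. Tcf4 was high outside these cells too, at 3811 RPM in cell 11 of pool 1, which had the highest superficial sum of all, 3041 RPM, and 1.81 RPM of inhibitory markers.

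**Figure D4:**
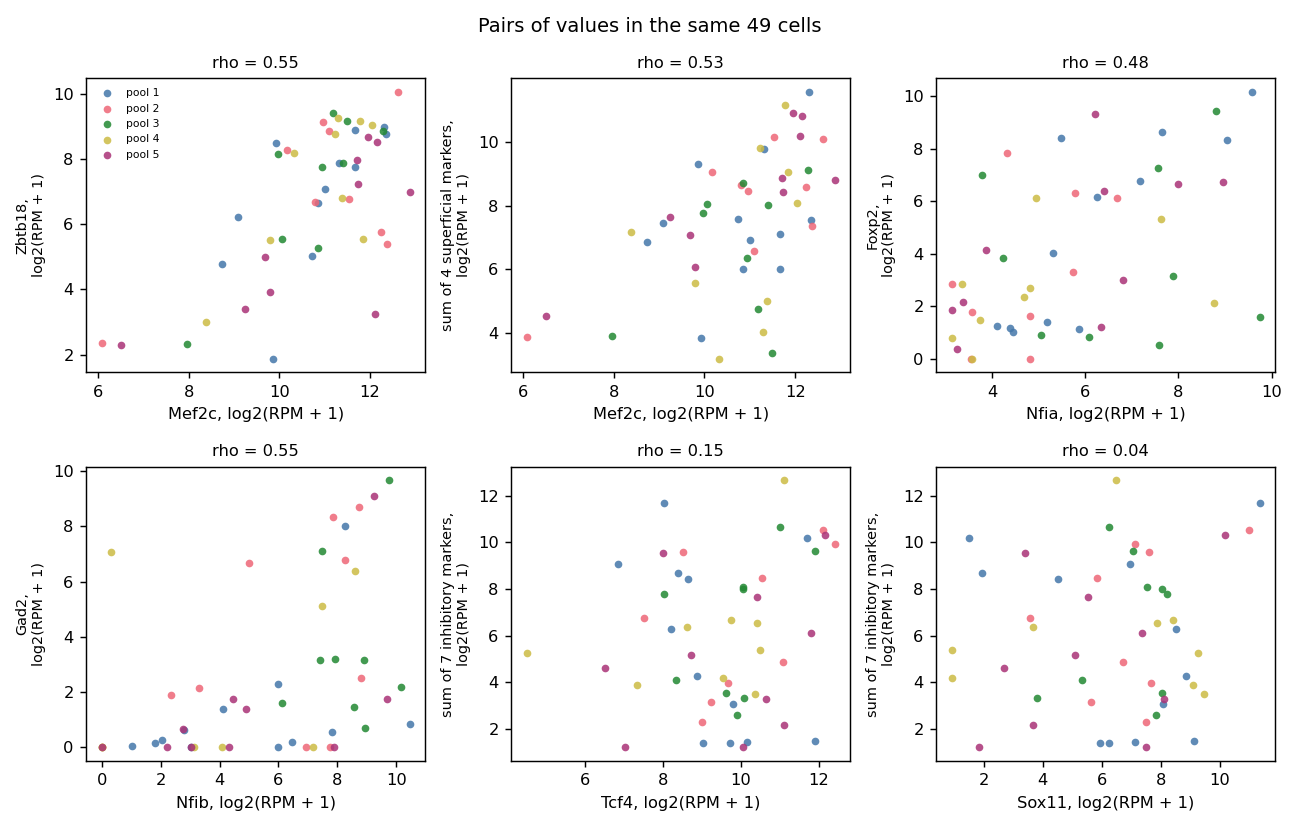
Pairs of values in the 49 cells on log2(RPM + 1) scales, coloured by library pool, with Spearman's rho above each panel. Mef2c rises with Zbtb18 (0.55) and with the superficial sum (0.53), while for Tcf4 (0.15) and Sox11 (0.04) the highest cells have high inhibitory sums and other cells with high sums lie across the range.

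Other transcription factors of postmitotic cortical neurons were followed from a list of 19 genes, 18 of them in the table. Of the 180 pairs of such a gene with a member, 10 were at a rho of 0.4 or more (5.56%) and none at -0.4 or less, where 2.6% of all pairs of genes were at 0.4 or more. Foxp1, a forkhead factor, was in 3 of them, with 0.55 for Zbtb18, 0.46 for Nfix and 0.41 for Mef2c. Bcl11a, a zinc finger factor, had 0.49 with Zbtb18, Lhx2 had 0.48 with Mef2c, and Myt1l, a zinc finger factor that keeps neurons neuronal, had 0.41 with Zeb2. With Foxp2, Neurod2 and Neurod6, given above, these are the 10. When cells were thinned to the same depth, Zeb2 with Myt1l was at 0.32 and Mef2c with Foxp1 at 0.37, under the limit. The rest of the 10 stayed at 0.4 or more.

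Paralogs and binding partners gave fewer. Of 17 listed genes, 13 were in the table, and 10 of these reached 10 RPM in at least 10 cells and were paired. Of their 100 pairs, 3 were at 0.4 or more, all with Tcf4. They were Mef2a, a relative of Mef2c, at 0.52, the histone deacetylase Hdac9 at 0.51 and Sox12, the remaining SoxC gene, at 0.48. When cells were thinned to the same depth, Sox12 was at 0.39. Mef2a had 0.31 with Mef2c itself, Tcf12, another E protein, had 0.32 with Tcf4, and Id2, which keeps E proteins from binding DNA, had -0.11. Tcf4 correlated with many genes, 7.52% of those compared at 0.4 or more, the highest share of the members, so its partners stand among many, and Sox11 with the fewest, 0.0674%.

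The genes most like each member, by rho among the genes at 10 RPM or more in at least 10 cells are given next. Across all genes the highest rho that a gene had with any other was 0.62 at the median, with 0.53 to 0.72 between the 5th and 95th percentiles. The highest for a member was 0.69, Tcf4 with Atp11b. The value was 0.66 for Nfix with Osbpl1a, 0.62 for Nfib with Hs6st2 and 0.62 for Zeb2 with Plxna4, a semaphorin coreceptor. Mef2c had 0.60 with Tmem68, with Zbtb18 in the next place, and Sox4 had 0.58 with Trappc6b. For Nfia, Sox11 (0.48, Efr3b) and Bhlhe22 (0.48, Trip11) the nearest gene was further off than for 95% of genes. Hes1, a Notch target, was the third nearest to Bhlhe22 at 0.43.

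By the annotation, exons of genes on the other strand overlap those of Sox4, Nfia, Nfix, Zbtb18 and Zeb2. Whether counting used strand is not given in the sources used here, so reads of these overlaps cannot be told apart.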

How the data were processed

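Neurons were aspirated singly at P7, and the chemistry was SMART-Seq v4 3′ DE, which reads transcripts from that end. The authors aligned reads to GRCm38 with STAR and counted them with HTSeq, and the deposited values are RPM. Versions and annotation are not given in the sources used here. Reads carry no molecular identifiers, so they are not independent molecules, and the counting intervals cover counting error only.

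Reads were recovered from the step between low values of a cell, and on simulated data for 9020 genes in 49 cells 100% of the values were recovered. With 1 condition, no count test could be made. Detection was counted from 1 read and from 10 and 100 RPM. Log2 values had a pseudocount of 1. Spearman's rho used RPM over the 49 cells. Counts of pairs, shares over all genes and the most alike genes used genes at 10 RPM or more in at least 10 cells. Single rho values were also given for list genes under that limit: Lhx6 reached 10 RPM in 6 cells, and Dlx1 and Syt6 in 8 each. Expected cells are those of independent genes. Depth ran from 209850 to 35342325 reads per cell. Exon lengths are of GENCODE M21.

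The members and lists were chosen with earlier results of these data known. Genes named are the members, those of the lists and the 3 most alike to each member. Alternatives were other detection limits, thinning, reads outside mitochondrial and hemoglobin genes, edgeR's TMM, pseudocounts of 0.1 and 10, a filter of 100 reads in 2 cells, ranks centred on pools, and leaving out each pool. The alternatives for marker sums were chosen after seeing the data. Some planned genes, and the values that need them, are not reported here, so the superficial sum and the list of other transcription factors are shorter than planned. Tools were edgeR 4.0.16 in R 4.3.3, and scipy 1.17.1, pandas 2.3.3, numpy 2.4.6 and matplotlib 3.10.9 in Python 3.11.15.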

Additional observations from a re-analysis of the deposited data

How the results depend on the processing

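No paired analysis was possible because there is a single condition, with no groups whose numbers could be matched. The median over the members of the share of cells that hold them was 100% from 1 read, 88.8% from 10 reads and 86.7% from 10 RPM. The median over the pairs of the number of cells with both members was 37 at 10 RPM and 14 at 100 RPM. The other 51 alternatives of the summary values, among them TMM, thinning and each pool left out, stayed within 1.5 times the value, within 0.1 of the rho or within the counting interval. The number of members at 10 RPM in at least 25 cells was 9 under either other normalization, without the cells with hemoglobin and without each pool, and 6 at 100 RPM. Further alternatives covered single genes, pairs of members at 0.3 or more in size and marker sums at 0.4 or more. Of these 268, 33 moved beyond their limit. Direction was judged for the rho values only, of which 11 moved, 106 did not and none turned. Mean log2 values (20) were held to 1 standard deviation over the cells, and places among all genes (10) to 5 percentage points. The order per kilobase (1) was held to no limit. These last kinds could hardly move and carry little weight. Weaker rho values are not among the 268 and can turn. Over the pools left out, Tcf4 with Id2 ran from -0.21 to 0.06 and Sox4 with Sox11 from -0.02 to 0.26. Nfib with Nfix ran from -0.13 to 0.21, and Nfia with Tbr1 was -0.04 when thinned. The median of Bhlhe22 was 8.80 RPM by TMM, 9.76 without pool 4 and 3.09 without pool 5. The labels name no animal and the table holds no radial position, so neither could be compared with these levels.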

Other observations

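Lists of young, older and progenitor genes were set beside the members as well. With young neuron genes (Dcx, Stmn2, Tubb3, Gap43 and Dpysl3) 2 of 50 pairs reached a rho of 0.4, Dcx with Mef2c at 0.42 and Stmn2 with Nfix at 0.42. Sox4 and Sox11, which mark young neurons, had 0.32 and 0.15 with Dcx, and 0.33 and 0.32 once cells were thinned to the same depth. Thinned in the same way, Mef2c had 0.35 with Dcx, near these values, and Nfix had 0.57 with Stmn2. With the summed young neuron genes rho was only 0.03 for Sox4 and -0.06 for Sox11. The other members ran from -0.23 (Tcf4) to 0.39 (Zbtb18) with this sum, and Nfix was at 0.29, or 0.51 when thinned. With Stmn2, Tubb3, Gap43 and Dpysl3 in turn, Sox11 was at -0.19, -0.14, 0.08 and 0.07. Sox4 was at 0.09, 0.18, -0.03 and -0.01 with the same genes. None of the 60 pairs with older neuron genes reached 0.4 in either direction. With their sum, however, Sox4 was at 0.36, or 0.41 when thinned, and 2.85% of genes had a higher rho. The other members ran from -0.17 (Nfib) to 0.26 (Nfix) with the older sum. Progenitor genes in the table were Sox2, Hes1 and Vim, and at least 2 of them were at 10 RPM or more in 8 cells. With summed markers of other cells, rho ranged from -0.34 (Mef2c) to 0.24 (Nfib) for astrocytes, from -0.09 (Mef2c) to 0.27 (Sox4) for the oligodendrocyte lineage, from -0.27 (Zbtb18) to 0.15 (Nfib) for microglia and from -0.31 (Tcf4) to 0.22 (Bhlhe22) for red blood cells. Of the endothelial list only Flt1 was in the table, and no sum was made.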
